A study of Homo sapiens with 12 samples.

Results

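The metallothioneins and the zinc export machinery of macrophages were examined as a set of 10 genes out of 58735 in the count table, taken by gene symbol from a list drawn up with earlier results of these data known. The set held 8 metallothionein genes (MT2A, MT1A, MT1E, MT1F, MT1G, MT1H, MT1M and MT1X), the zinc exporter gene SLC30A1 and the metal sensor gene MTF1. RNA was sequenced from tumor-associated macrophages (TAMs), which were THP-1 monocytic leukemia cells differentiated with phorbol ester (PMA) and then cocultured across a porous Transwell membrane with AsPC-1 pancreatic cancer cells. The design had 4 groups of 3 libraries each. In the control group the AsPC-1 cells carried an empty lentiviral vector, in the OE-MMP28 group they carried a lentivirus encoding MMP28, and in the remaining groups the OE-MMP28 cells were combined with the neutralizing antibody MAB208-SP against IL-8 (anti-IL-8 group) or MAB293-SP against VEGFA (anti-VEGFA group). No group combined either antibody with vector cells, and none was labelled as receiving a control antibody. Neutralization of the cytokine and the presence of added antibody therefore cannot be told apart. Both cell types were established lines, and the overexpressed gene was in the cancer cells, so the sequenced TAM libraries give no check of it.

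Metallothioneins are small cysteine-rich proteins that bind zinc, copper and cadmium and buffer free zinc in the cytosol. When cytosolic zinc rises, the transcription factor MTF1 binds zinc, moves to metal response elements in the promoters of metallothionein genes and of SLC30A1, and increases their transcription, while SLC30A1 in the plasma membrane pumps zinc out of the cell. Macrophages are known to use this system to withhold zinc from microbes or to load it into compartments, and metallothionein genes are also known targets of glucocorticoids, cytokines and oxidative stress.

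The metallothionein genes lie side by side in a cluster on chromosome 16. In GRCh38 with GENCODE 29 gene models, MT2A occupied chr16:56608199-56609497, MT1E chr16:56625475-56627112, MT1F chr16:56657694-56660698 and MT1X chr16:56682424-56684196, all on the plus strand, while MT1G lay at chr16:56666731-56668065 on the minus strand. SLC30A1 lay at chr1:211571568-211578742 and MTF1 at chr1:37809567-37859620, both on the minus strand. Each metallothionein has a coding sequence of 183 bases, and the first 60 coding bases of the 5 expressed members let their similarity be read, with bases that differ from MT2A in capitals.
MT2A: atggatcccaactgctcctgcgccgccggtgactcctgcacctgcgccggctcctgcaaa
MT1X: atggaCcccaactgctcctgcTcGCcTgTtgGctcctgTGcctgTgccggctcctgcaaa
MT1E: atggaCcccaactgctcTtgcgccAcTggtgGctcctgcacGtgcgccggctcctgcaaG
MT1F: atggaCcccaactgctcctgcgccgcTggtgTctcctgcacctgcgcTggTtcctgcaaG
MT1G: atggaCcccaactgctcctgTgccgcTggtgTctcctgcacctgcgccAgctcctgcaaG
Over the whole coding sequence these MT1 members were identical to MT2A at 91.3% to 95.1% of bases. Of all windows of 50 bases in the chosen MT1G and MT1X transcripts, 20.2% and 14.7% occurred in another metallothionein transcript, against 3.59% to 5.34% for MT1F, MT2A and MT1E, and no window of 100 bases was shared by any of the 5. Reads in such windows could have been left out or misplaced between these genes by the authors' counting, so the metallothionein counts carry this uncertainty.

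The promoters are shown because the members differ in how many metal response elements, the binding sites of MTF1, can be matched in them. The 250 bases upstream of the RefSeq transcription start (GRCh38.p14) were searched on both strands for the element's core, spelled as TGCACNC or TGCGCNC, and matches are in capitals, in reverse complement where they lie on the other strand. None of the matches in these windows overlapped. RefSeq promoters were held for 5 of the 10 genes (MT2A, MT1X, MT1H, SLC30A1 and MTF1), and 4 of them are printed.
MT2A, chr16:56608334-56608583, plus strand: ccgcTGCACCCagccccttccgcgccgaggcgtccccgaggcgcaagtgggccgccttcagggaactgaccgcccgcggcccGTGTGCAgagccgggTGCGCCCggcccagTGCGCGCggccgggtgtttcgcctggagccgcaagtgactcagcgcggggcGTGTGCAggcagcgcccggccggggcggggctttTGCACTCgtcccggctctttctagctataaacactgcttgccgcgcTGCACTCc
MT1X, chr16:56682220-56682469, plus strand: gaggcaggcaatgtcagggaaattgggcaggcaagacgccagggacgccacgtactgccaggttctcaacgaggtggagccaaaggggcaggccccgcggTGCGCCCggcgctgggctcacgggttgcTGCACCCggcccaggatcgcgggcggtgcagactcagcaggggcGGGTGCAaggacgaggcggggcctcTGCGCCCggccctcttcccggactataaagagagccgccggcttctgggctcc
MT1H, chr16:56669564-56669813, plus strand: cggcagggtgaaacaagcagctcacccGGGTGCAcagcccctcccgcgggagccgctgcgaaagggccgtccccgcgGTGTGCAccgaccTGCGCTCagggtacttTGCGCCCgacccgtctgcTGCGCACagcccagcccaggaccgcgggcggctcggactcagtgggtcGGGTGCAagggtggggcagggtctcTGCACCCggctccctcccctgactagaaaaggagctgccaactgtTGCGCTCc
SLC30A1, chr1:211579162-211579411, minus strand: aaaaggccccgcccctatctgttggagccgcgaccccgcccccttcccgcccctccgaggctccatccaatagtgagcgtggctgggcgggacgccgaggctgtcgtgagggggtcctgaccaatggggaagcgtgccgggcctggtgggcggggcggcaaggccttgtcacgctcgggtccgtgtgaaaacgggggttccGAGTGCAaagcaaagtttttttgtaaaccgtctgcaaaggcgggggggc
MT2A held 7 matches, a number reached by 0.031% of the 35116 promoters searched, MT1H held 8 (0.017%) and MT1X held 4 (0.37%). SLC30A1 held 1 match, where 24.8% of all promoters held at least 1, and MTF1 held 0. The starts used for MT2A, MT1X, SLC30A1 and MTF1 differ from the ends of their GENCODE models given above. A match is a description of letters and not an occupied site: MT1H, with the most matches, had no count in any library.

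**Figure D1:**
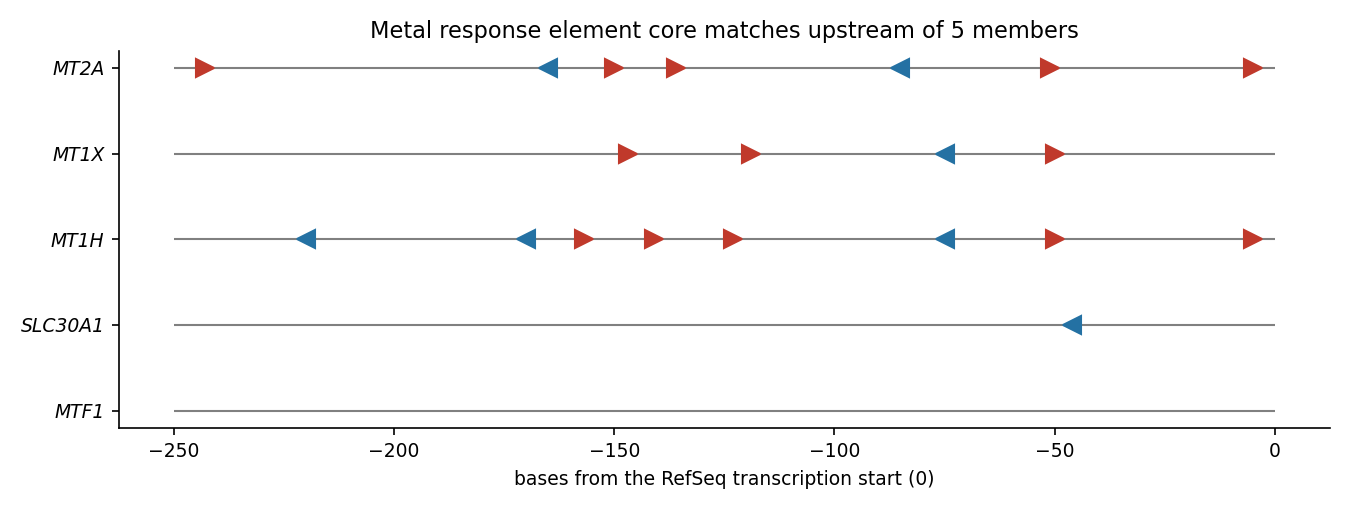
Positions of metal response element core matches in the 250 bases upstream of the RefSeq start of 5 members, in bases from the start. Triangles pointing right (red) are matches on the gene's strand and triangles pointing left (blue) on the other strand. MT2A has 7, MT1X 4, MT1H 8, SLC30A1 1 and MTF1 none.

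Library totals lay between 15852346 and 18701195 counts, so that 3 counts, taken as the limit that a count of 0 allows, corresponded to 0.160 to 0.189 CPM (counts scaled by library size), covering counting error only. Reads on mitochondrial genes took 6.92% to 17.8% of each library, both extremes in the anti-VEGFA group. Of the 10 macrophage markers, 9 passed the filter on low counts, but CD68 had only 0 to 5 counts per library, and the summed marker level was 6115 to 6947 CPM in control, 5637 to 9186 in OE-MMP28, 8384 to 10730 in anti-IL-8 and 6937 to 8707 in anti-VEGFA. The 10 epithelial markers of the coculture partner summed to 2.28 to 5.57 CPM over all libraries, and EPCAM and TFF1 were at 0 in all 12. The labels do not say that libraries of a group came from separate cultures, so all p-values below measure only the spread between these libraries.

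Of the 10 members, 7 passed the filter and were tested among 16046 genes. The remaining 3 were at or under the limit of detection in every library, with 0 to 3 counts for MT1M (10 over the 12 libraries), 0 to 1 for MT1A (4 over the 12) and 0 for MT1H. The other 10 genes and pseudogenes of the family that were looked up (MT1B, MT1L, MT1JP, MT1DP, MT1HL1, MT1P1, MT1P3, MT2P1, MT3 and MT4) had at most 2 counts in any library.

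On the authors' FPKM scale, which divides by gene length and so permits levels of different genes to be compared, MT2A was the main metallothionein of these TAMs. Its mean level over the 12 libraries was 42.7 FPKM with a range of 24.6 to 61.6, and its lowest library exceeded the highest library of every other member. MT1E followed at 9.80 FPKM (6.77 to 14.3), then SLC30A1 at 9.46 (6.65 to 13.1) and MTF1 at 8.46 (6.27 to 10.9), and the ranges of these 3 overlapped. A lower tier of MT1X at 3.17 FPKM (2.44 to 6.17), MT1G at 2.91 (1.55 to 4.76) and MT1F at 2.13 (1.42 to 2.94) also overlapped among themselves but not with the tier above. The gene lengths used for MT2A and MT1X equal their full genomic spans, introns included, which lowers their FPKM relative to a spliced length. The lengths also exceeded those of the chosen transcripts by unequal factors. They were 1773 against 450 bases for MT1X, 1889 against 690 for MT1F and 750 against 406 for MT1G. For MT1E they were 1052 against 704, and for MT2A 1299 against 786. The tiers and the order of members other than MT2A therefore rest on these lengths and may not hold at transcript length.

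MT2A, the family's ubiquitously expressed member, was lower in TAMs cocultured with OE-MMP28 cells than in control TAMs, and was lowest on average in the anti-IL-8 group. Its normalised read count was 80.2, 80.9 and 68.0 CPM in the control libraries, 51.7, 39.1 and 59.3 in OE-MMP28, 42.2, 48.4 and 36.7 in anti-IL-8, and 32.5, 65.9 and 68.3 in anti-VEGFA. Every OE-MMP28 and anti-IL-8 library lay below every control library, and the anti-VEGFA group was split, with 1 library the lowest of all 12 and the others close to the lowest control. The group means were 76.4 ± 7.26 CPM in control, 50.01 ± 10.2 in OE-MMP28, 42.4 ± 5.84 in anti-IL-8 and 55.6 ± 20.03 in anti-VEGFA (SD, n = 3 each).

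Relative to control, MT2A fell 1.80-fold in the anti-IL-8 group, a log2 fold change of -0.85 (SE 0.22, 95% CI -1.31 to -0.39), with an adjusted p of 0.0132 in edgeR's quasi-likelihood test after Benjamini-Hochberg adjustment over all genes tested. Among the members this was the single call at an adjusted p under 0.05 in any of the 6 comparisons, and 20.7% of all genes tested were called in that comparison and 10.9% of all genes were called lower, so that 1 of 7 members called is near the background. The call was lost when any 1 of 3 libraries was left out, with a log2 fold change of similar size. Without control replicate 2 the log2 fold change was -0.80 with an adjusted p of 0.0544, and without replicate 1 or 3 of the anti-IL-8 group it was -0.81 and -0.74 with adjusted p of 0.0607 and 0.0782. Calls over all genes fell from 3317 to 1340, 1312 and 1361 in these fits, in that order. In OE-MMP28 against control, the log2 fold change of MT2A was -0.61 (SE 0.22, adjusted p = 0.167), which passed the threshold when anti-VEGFA replicate 1, a library outside the comparison, was left out (-0.61, SE 0.15, adjusted p = 0.0285). In anti-VEGFA against control it was -0.46 (SE 0.22, adjusted p = 0.181). All 3 of these comparisons share the control libraries. Because bulk RNA was sequenced, fewer cells expressing a gene and less RNA of it per cell cannot be told apart. The summed macrophage markers were also highest in the anti-IL-8 group, at 8384 to 10730 CPM, which overlapped OE-MMP28 (5637 to 9186). ITGB2 alone held 3490 to 7254 CPM. Of 9 macrophage markers tested, 4 were called higher in anti-IL-8 than in control, beside 20.7% of all genes called either way. The log2 fold change was below 0 for 2. The summed epithelial markers were at 4.68 to 5.57 CPM in control and 2.28 to 3.43 in OE-MMP28. They lay at 3.50 to 4.76 in anti-IL-8 and 4.16 to 4.445 in anti-VEGFA. MUC1 alone held 1.64 to 3.85 CPM, and EPCAM and TFF1 were at 0 in every library. The part of either sum in the MT2A difference was not tested.

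**Figure D2:**
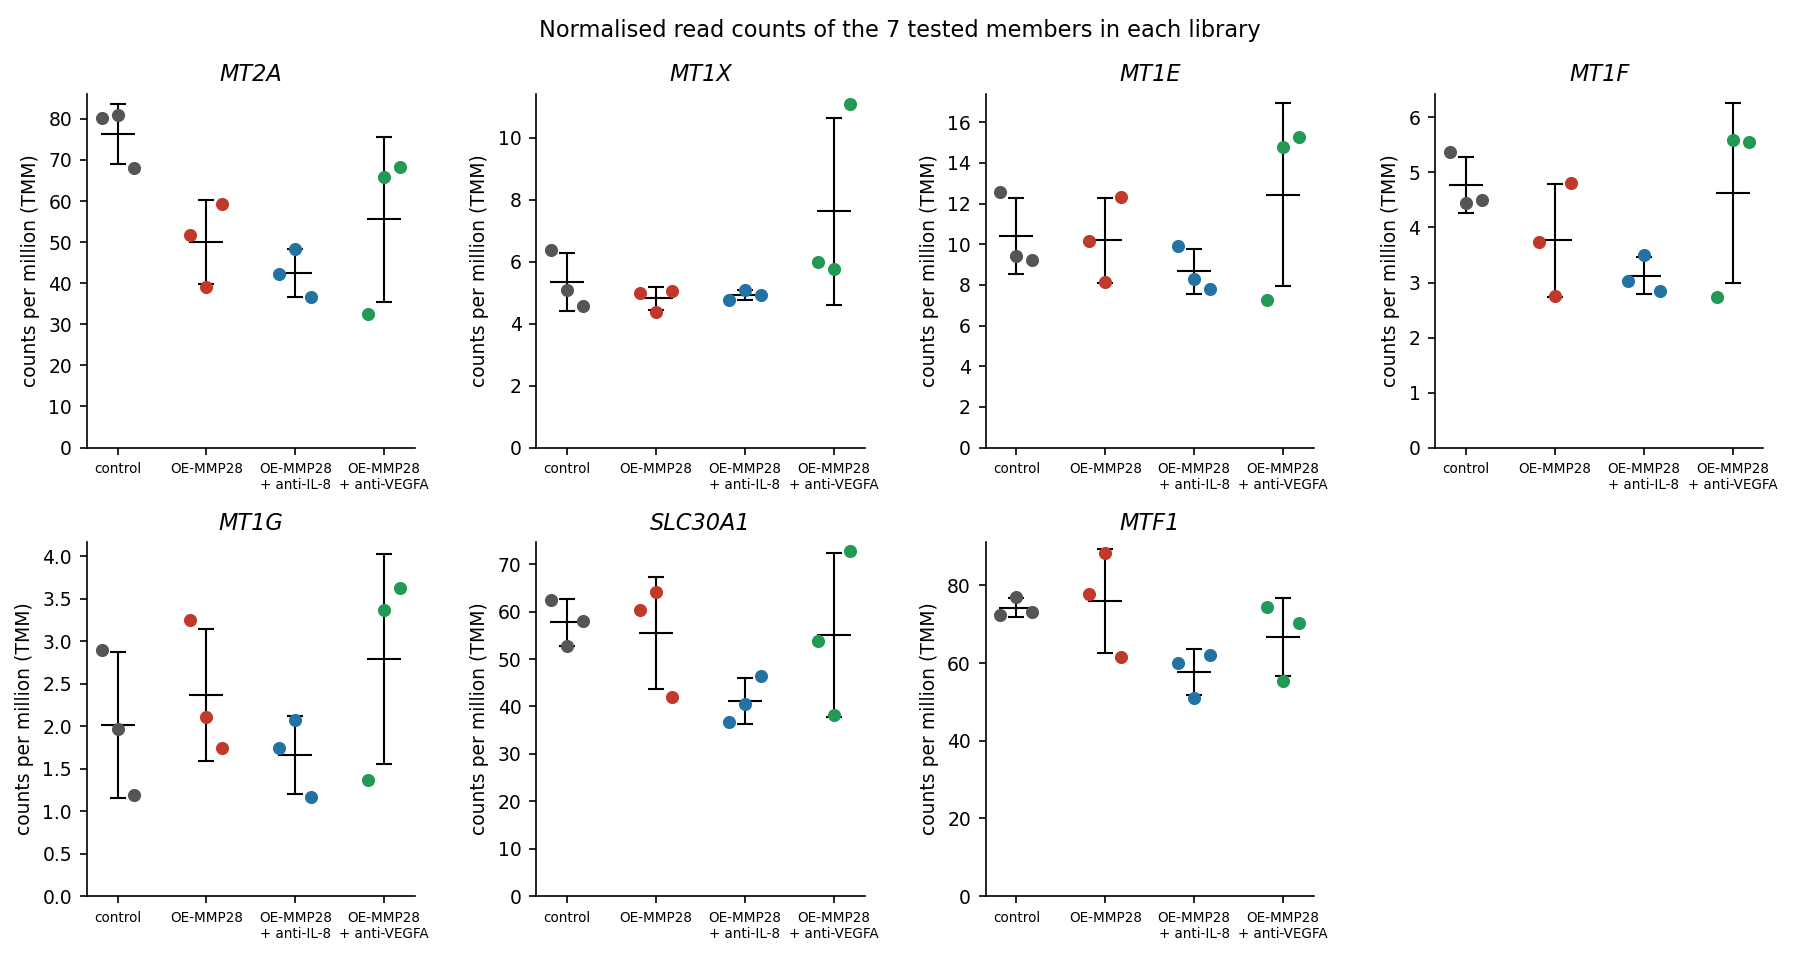
Normalised read counts (CPM after TMM scaling, vertical axes from 0) of the 7 tested members in each of the 12 libraries. Points are libraries, long ticks are group means and bars are SD (n = 3). MT2A lies at 68.0 to 80.9 CPM in control and at 36.7 to 48.4 in the anti-IL-8 group.

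The type 1 metallothioneins, which share MT2A's metal-binding fold, did not all show the same order of group means, which MT1F shared with MT2A and MT1X, MT1E and MT1G did not. MT1X measured 6.37, 5.08 and 4.56 CPM in control, 5.00, 4.39 and 5.06 in OE-MMP28, 4.76, 5.10 and 4.93 in anti-IL-8, and 6.00, 5.78 and 11.1 in anti-VEGFA. All 3 anti-VEGFA libraries exceeded all OE-MMP28 and all anti-IL-8 libraries, while the control libraries overlapped every group. The log2 fold change of MT1X was 0.67 in anti-VEGFA against OE-MMP28 (SE 0.23, adjusted p = 0.152) and 0.63 against anti-IL-8 (SE 0.23, adjusted p = 0.228), neither past the threshold. A single library, anti-VEGFA replicate 3, held 208 of the gene's counts where the other 11 libraries held 74 to 108.

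MT1E measured 12.6, 9.42 and 9.24 CPM in control, 10.2, 8.13 and 12.3 in OE-MMP28, 9.91, 8.30 and 7.79 in anti-IL-8, and 7.25, 14.8 and 15.3 in anti-VEGFA, with every pair of groups overlapping. MT1F measured 5.37, 4.45 and 4.50 CPM in control, 3.74, 2.75 and 4.81 in OE-MMP28, 3.02, 3.50 and 2.85 in anti-IL-8, and 2.73, 5.59 and 5.55 in anti-VEGFA. Of these groups only anti-IL-8 stood wholly below control, with an MT1F log2 fold change of -0.61 (SE 0.27, adjusted p = 0.114). MT1G, the member with the fewest counts among those tested (18 to 68 per library), measured 2.89, 1.96 and 1.18 CPM in control, 3.24, 2.11 and 1.75 in OE-MMP28, 1.74, 2.08 and 1.17 in anti-IL-8, and 1.37, 3.37 and 3.63 in anti-VEGFA. Its libraries within a group differed by up to 2.65-fold and no groups were separated. In the anti-VEGFA group, replicate 1 was the lowest of the 12 libraries for MT2A, MT1E and MT1F, while replicates 2 and 3 were the highest for MT1E, MT1F and MT1G. That replicate 1 had the lowest mitochondrial share of the 12 libraries (6.92%) and replicate 2 the highest (17.8%), and the part of this share in the split was not tested.

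Since counts within a library share its depth and scaling, the MT1 members were also set against MT2A directly, a description chosen after the levels had been seen and given without a test. For every 100 counts of MT2A, control libraries held 11.6 to 15.7 counts of MT1E and the 9 libraries with OE-MMP28 cells, with or without antibody, held 17.2 to 23.5. The corresponding ranges were 6.29 to 7.94 and 8.53 to 18.5 for MT1X, and 5.50 to 6.69 and 7.04 to 8.48 for MT1F. For each of these 3 genes all 9 libraries lay above all 3 controls, as did 7 of 9 for MT1G, 6 of 9 for SLC30A1 and 5 of 9 for MTF1. A full separation of this kind was present for 27.2% of the other genes tested, and the 3 of 6 other members with it are to be read beside that share. Averaged over the 4 tested MT1 members on the log2 scale, MT2A counts exceeded MT1 counts by 4.02 ± 0.23 in control, 3.46 ± 0.15 in OE-MMP28, 3.46 ± 0.06 in anti-IL-8 and 3.24 ± 0.12 in anti-VEGFA (SD, n = 3 each). On the FPKM scale MT2A made up 76.4% ± 2.80 of the summed level of the 8 metallothioneins in control TAMs, against 68.5% ± 1.42, 68.6% ± 1.96 and 65.5% ± 1.32 in the OE-MMP28, anti-IL-8 and anti-VEGFA groups (SD, n = 3 each). These shares depend on the gene lengths used for FPKM.

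**Figure D3:**
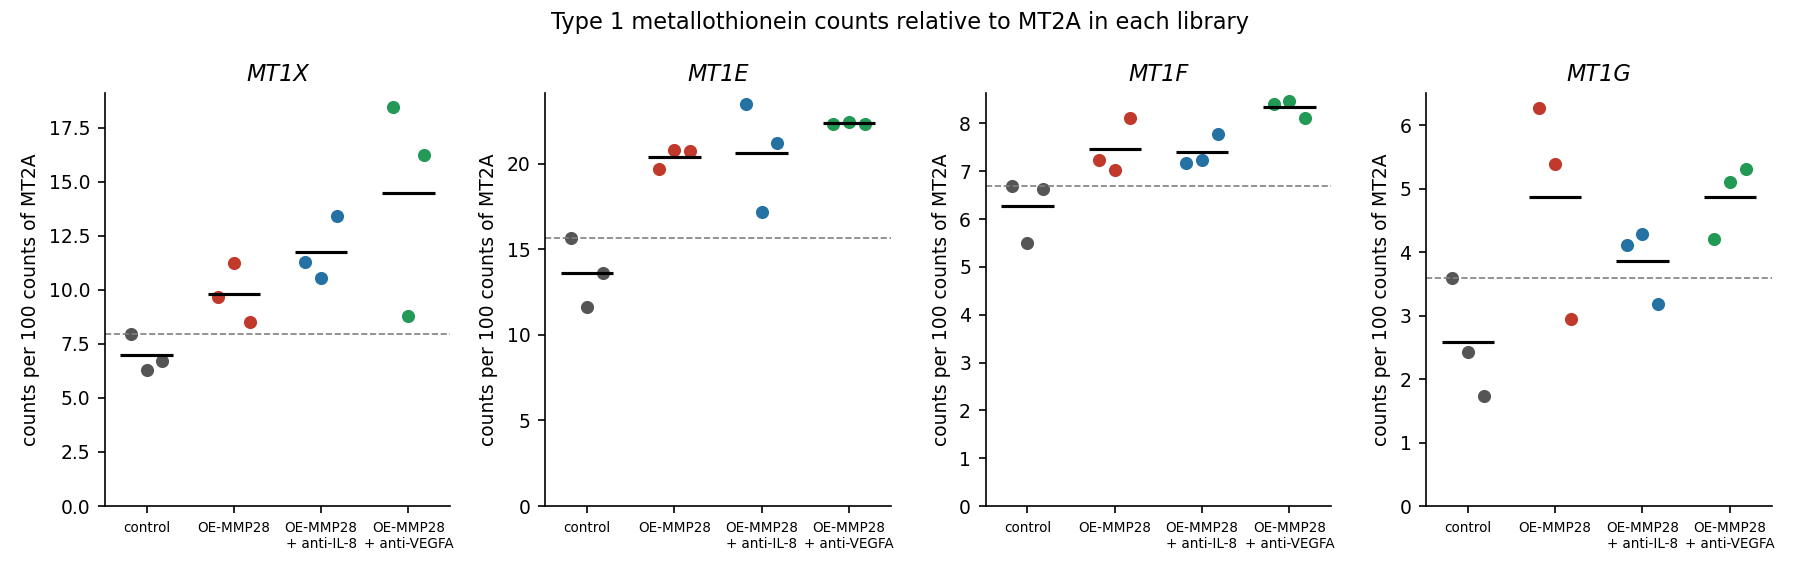
Counts of MT1X, MT1E, MT1F and MT1G per 100 counts of MT2A (vertical axes from 0) in each library. Points are libraries, solid lines group means and the dashed line the highest control library. For MT1X, MT1E and MT1F all 9 libraries with OE-MMP28 cells lie above the dashed line.

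SLC30A1, the exporter that lowers cytosolic zinc, was at its lowest in the anti-IL-8 group. It measured 62.4, 52.7 and 58.0 CPM in control, 60.4, 64.1 and 42.1 in OE-MMP28, 36.6, 40.6 and 46.3 in anti-IL-8, and 53.8, 38.3 and 72.9 in anti-VEGFA. Every anti-IL-8 library was below every control library, but OE-MMP28 replicate 3 and anti-VEGFA replicate 2 were within the anti-IL-8 range. The log2 fold change in anti-IL-8 was -0.49 against control (SE 0.20, adjusted p = 0.0831) and -0.43 against OE-MMP28 (SE 0.20, adjusted p = 0.151). Without OE-MMP28 replicate 3 the second was -0.58 with an adjusted p of 0.0329, and without anti-VEGFA replicate 2 the first was -0.45 with an adjusted p of 0.0481. Over all genes (16046 tested in the main fit), calls went from 0 to 4125 when OE-MMP28 replicate 3 was left out. They went from 3317 to 3959 when anti-VEGFA replicate 2 was left out, so both changes are to be read beside these shifts. In OE-MMP28 against control the SLC30A1 log2 fold change was -0.05 with a 95% CI of -0.46 to 0.35.

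MTF1, the zinc sensor that drives both metallothionein and SLC30A1 transcription, had the same order of group means as SLC30A1 apart from control and OE-MMP28. It measured 72.5, 77.0 and 73.2 CPM in control, 77.7, 88.2 and 61.7 in OE-MMP28, 59.9, 51.1 and 62.2 in anti-IL-8, and 74.5, 55.4 and 70.3 in anti-VEGFA. The anti-IL-8 libraries again lay wholly below control, and anti-IL-8 overlapped OE-MMP28 through OE-MMP28 replicate 3 alone. The log2 fold change in anti-IL-8 was -0.36 against control (SE 0.15, adjusted p = 0.0833) and -0.40 against OE-MMP28 (SE 0.15, adjusted p = 0.0945). Leaving out OE-MMP28 replicate 3 gave -0.51 and an adjusted p of 0.014 against OE-MMP28, where calls over all genes went from 0 to 4125. Leaving out OE-MMP28 replicate 2 gave -0.36 and an adjusted p of 0.0498 against control, where calls over all genes went from 3317 to 4309. OE-MMP28 replicate 3 had the highest mitochondrial share of its group (12.3%). Replicate 2 of that group, with the highest MTF1 level of the 12 libraries (88.2 CPM), had a similar share (11.8%). The part of the share in the replicate 3 level was not tested. With the share as a covariate MTF1 in anti-IL-8 against OE-MMP28 was -0.43 with an adjusted p of 0.0469, while calls over all genes went from 0 to 1739.

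Read by comparison, OE-MMP28 against control gave 0 of 7 members called by edgeR, DESeq2 or limma voom, beside 3.16% of all genes by edgeR. At an unadjusted p under 0.05 there was 1 member (MT2A, lower), beside 8.61% of genes that were lower, and MT2A was also the 1 member lower without overlap, beside 11.6%. Adding the IL-8 antibody to the OE-MMP28 coculture (anti-IL-8 against OE-MMP28) also gave 0 called by each of these tools. There edgeR called 0% of all genes and DESeq2 called 2376 genes. At the unadjusted threshold 2 members were lower (SLC30A1 and MTF1), beside 15.9% of genes, and the median log2 fold change was -0.26 over the 7 members and -0.02 over all genes. Adding the VEGFA antibody (anti-VEGFA against OE-MMP28) gave 0 called by each tool, beside 0.343% of genes. At the unadjusted threshold there was 1 member (MT1X, higher), beside 10.4% of genes that were higher. MT1X was also the 1 member higher without overlap, beside 9.11%.

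The antibody groups were then read against control and against each other. In anti-IL-8 against control all 7 members had a negative log2 fold change (51.4% of all genes did), the median was -0.36 over the members and -0.02 over all genes, and 4 members (MT2A, MT1F, SLC30A1 and MTF1) were lower without overlap and at an unadjusted p under 0.05. In the same comparison 24.4% of all genes were lower without overlap and 18.7% lower at the unadjusted threshold. In anti-VEGFA against control 0 members were called by edgeR, DESeq2 or limma voom, beside 11% of genes. Of the 7, 2 passed the unadjusted threshold in opposite directions, MT2A at -0.46 and MT1X at 0.52, beside 27% of genes. Set directly against each other, all 7 members were higher on average with anti-VEGFA than with anti-IL-8, by 0.21 (MTF1) to 0.74 (MT1G) on the log2 scale, with a median of 0.52 against 0.02 over all genes, of which 47.8% were lower. For MT2A, MT1E and MT1F, however, anti-VEGFA replicate 1 (32.5, 7.25 and 2.73 CPM) was below every anti-IL-8 library. All 7 differences come from the same libraries and are not independent. Again 0 members were called by edgeR, DESeq2 or limma voom, beside 0.199% of genes, and 3 (MT1X, MT1E and SLC30A1) were higher at the unadjusted threshold, beside 9.39%, with MT1X the 1 tested member higher without overlap, beside 11.3%.

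**Figure D4:**
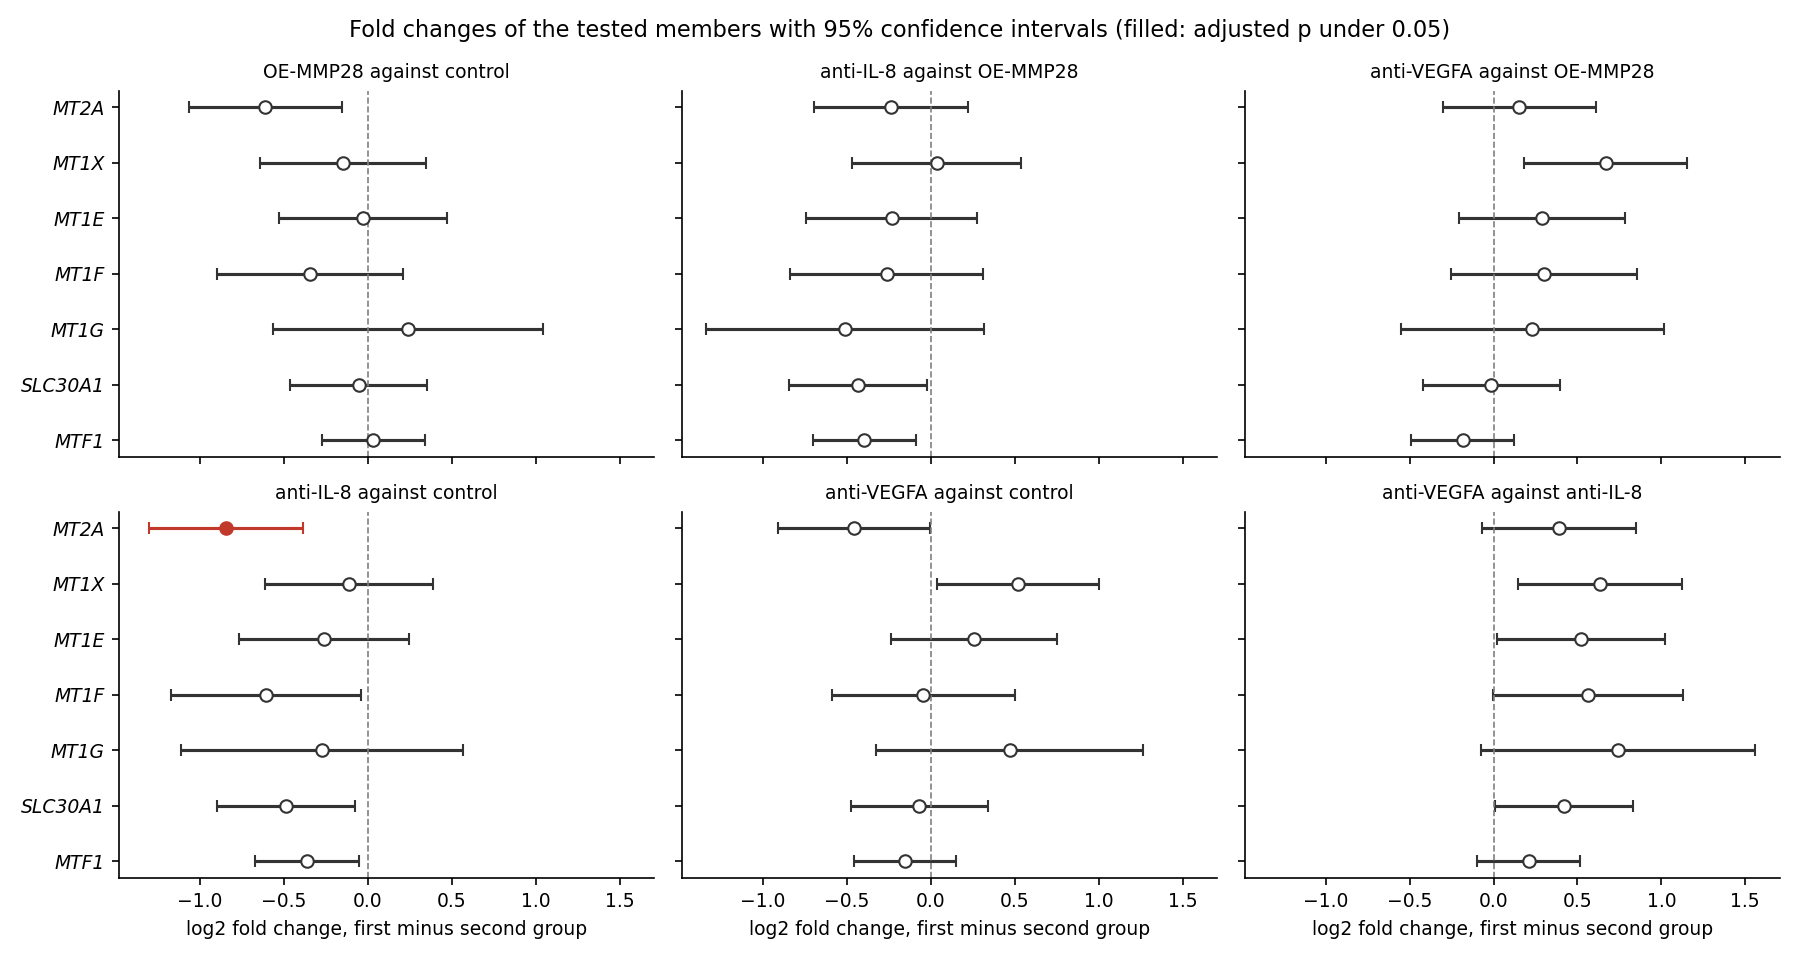
Log2 fold changes (first group minus second, horizontal axis) of the 7 tested members in the 6 comparisons, with 95% confidence intervals from the edgeR fit. The filled red point, MT2A in anti-IL-8 against control at -0.85, is the call at an adjusted p under 0.05. In anti-VEGFA against anti-IL-8 all 7 points lie above 0, and they come from the same libraries.

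The members varied together within groups to very different degrees. After removing each group's mean, the deviations of MT2A and MT1F over the 12 libraries had a Pearson r of 0.96 and a Spearman rho of 0.89, with an exact permutation p within groups of 0.00617 for r (1296 arrangements, two-sided) and of 0.01 for rho, or 0.0972 and 0.0917 after adjustment over the 21 pairs of members. MT1F ranked first by r with MT2A among the 16045 other genes tested, and r was 0.89 without the 2 libraries farthest from the median of MT2A. The same omission gave an r of 0.74 for MT2A with MT1E and -0.53 for MT2A with MTF1, and leaving out the 2 libraries farthest from the median of the first-named gene gave 0.85 for MT1E with MT1F and 0.68 for SLC30A1 with MTF1. MT2A and MT1E had an r of 0.91 and a rho of 0.88 (exact permutation p = 0.0154 and 0.0131, adjusted 0.108 and 0.0917), and MT1E and MT1F an r of 0.93 and a rho of 0.92 (exact permutation p = 0.00926 and 0.00772, adjusted 0.0972 and 0.0917). MT1E ranked 22 by r with MT2A among the 16045 other genes tested. MT1G had an r of 0.73 with MT2A and MT1X an r of 0.51 (adjusted exact permutation p = 0.236 and 0.536). Differences between these correlations were not tested. SLC30A1 and MTF1 had an r of 0.72 and a rho of 0.68 (exact permutation p = 0.098 and 0.0856, adjusted 0.257 and 0.22). MTF1 deviated against MT2A, with an r of -0.68 and a rho of -0.66 (exact permutation p = 0.1 and 0.0802, adjusted 0.257 and 0.22). For MT1F with MTF1 r was -0.77 and rho -0.80 (exact permutation p = 0.0563 and 0.0216, adjusted 0.236 and 0.113). No pair passed an adjusted p of 0.05. The points of each pair share their libraries. A part of reads misplaced between similar metallothioneins in the pairs within that family was not tested.

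**Figure D5:**
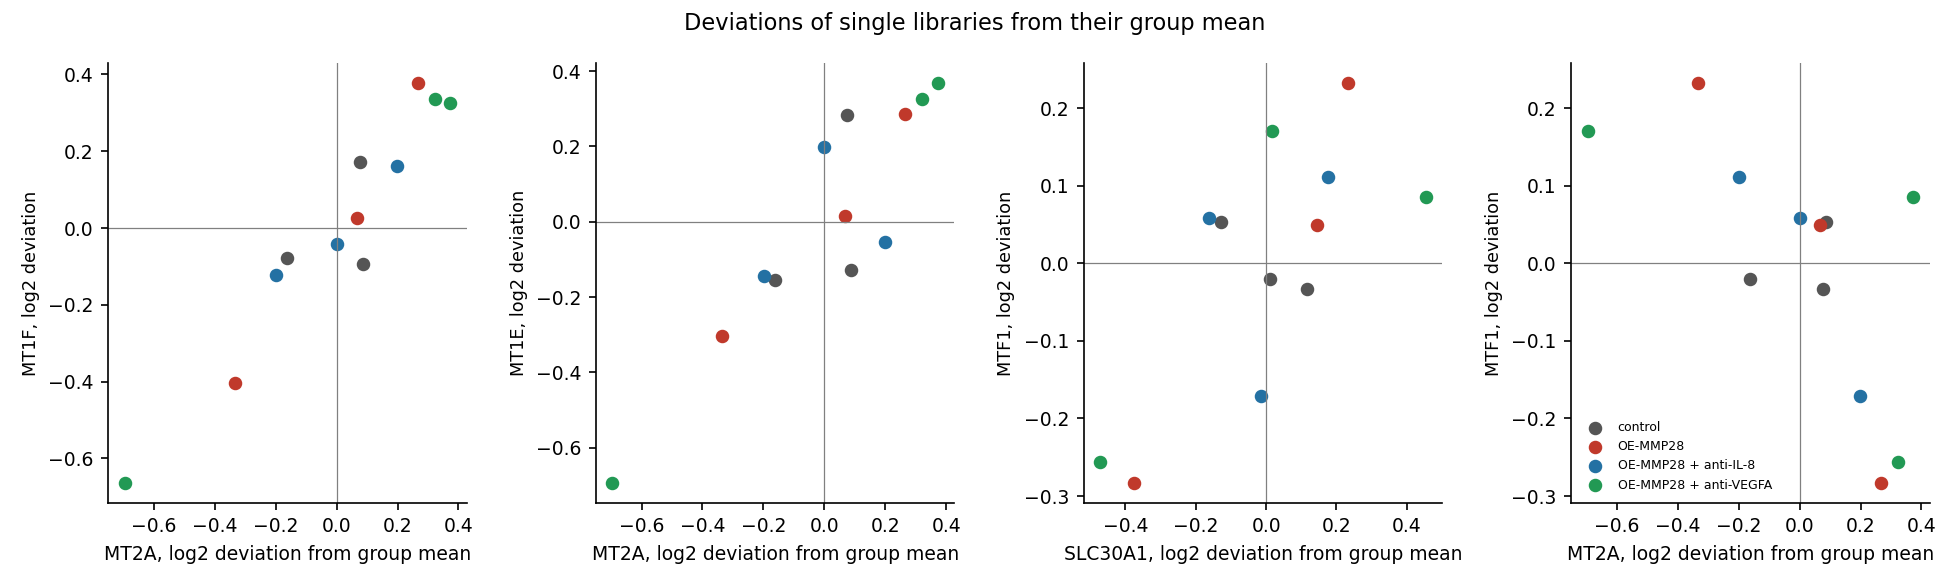
Log2 deviations of single libraries from their group mean (both axes), for MT2A with MT1F, MT2A with MT1E, SLC30A1 with MTF1 and MT2A with MTF1. Each point is 1 of the 12 libraries, colored by group. MT2A and MT1F lie close to a rising line (r = 0.96), with anti-VEGFA replicate 1 at the lower left.

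Over the 12 libraries without removal of group means, the genes outside the set that followed MT2A most closely on the log2 CPM scale were SAT1, which encodes a polyamine acetyltransferase (r = 0.92), LINC01686 (0.90), WT1-AS (0.89), AC104653.2 (0.87) and BNIP3, a mitophagy receptor gene (0.87). Genes that followed SLC30A1 closely included SLC39A6, which encodes a zinc importer, PDE3B, FKBP14 and TGFBR3, each at an r of 0.92. These are among the highest of 16045 correlations and are given as a description.

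The neighbouring biology was read from lists of 58 further genes, of which 40 were tested, namely the other family members already given, zinc exporters and importers, copper genes, and genes of other inducers of metallothioneins. Zinc exporters of the SLC30 family and TMEM163 had 6 of 10 tested, and 1 fell relative to control in both antibody groups. This was SLC30A9, a mitochondrial zinc transporter gene, at 48.8 ± 1.56 CPM in control, 30.3 ± 3.08 in anti-IL-8 and 33.3 ± 4.17 in anti-VEGFA (SD, n = 3 each). Its log2 fold changes were -0.69 (adjusted p = 0.00886) and -0.55 (adjusted p = 0.0372). The first was lost without anti-IL-8 replicate 1 (adjusted p = 0.0584) or replicate 3 (0.0503), and the second without any 1 control library, either of those 2 anti-IL-8 libraries, or anti-VEGFA replicate 2 or 3 (adjusted p 0.0539 to 0.123), and with library totals, limma on FPKM or the mitochondrial covariate (0.0612 to 0.084). The median over the 6 exporters was -0.27 in anti-IL-8 against control and -0.46 in anti-IL-8 against OE-MMP28, where none was called by edgeR, beside medians of -0.02 over all genes in both.

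Zinc importers of the SLC39 family had 11 of 14 tested, with 2 higher and 1 lower in anti-IL-8 than in control. SLC39A3, a plasma membrane importer gene, rose from 38.1 ± 1.71 to 67.4 ± 6.77 CPM (SD, n = 3 each), a log2 fold change of 0.82 (adjusted p = 0.00333), and kept its call without any 1 library. SLC39A13, a Golgi zinc transporter gene, rose by 0.59 (adjusted p = 0.00904, 0.0545 without control replicate 2). SLC39A6 fell by 0.66 (adjusted p = 0.0228, and 0.0594 to 0.124 without control replicate 1 or 3 or anti-IL-8 replicate 1 or 3, 0.0501 with log2(FPKM + 1)). Among 9 copper genes, SOD1, the copper-zinc superoxide dismutase, rose by 0.55 (adjusted p = 0.0332, 0.0608 to 0.121 without any 1 library of either group, 0.0518 and 0.0502 with limma on FPKM) and ATP7A, a copper exporter gene, fell by 0.56 (adjusted p = 0.0484) in the same comparison. The ATP7A call was lost without any 1 library of either group, OE-MMP28 replicate 1 or anti-VEGFA replicate 3 (adjusted p 0.0639 to 0.239), and with library totals (0.0523) or limma on FPKM (0.0894 and 0.0987). No importer or copper gene was called in the other comparisons by edgeR.

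Genes that respond to the other known inducers of metallothioneins were read in the same way. Of 6 tested genes known to be induced by glucocorticoids, 3 fell in both antibody groups against control. In anti-IL-8 against control 10.9% of all genes were called lower, and in anti-VEGFA against control 11% were called in either direction. None of the 6 was called by edgeR in either antibody group against OE-MMP28, where 0% and 0.343% of all genes were. DUSP1, a phosphatase gene, fell by 0.68 in anti-IL-8 (adjusted p = 0.00534) and by 1.04 in anti-VEGFA (adjusted p = 1.93e-04), and FKBP5, a glucocorticoid receptor cochaperone gene, by 0.59 (adjusted p = 0.00663) and 0.74 (adjusted p = 0.0018). KLF9 fell by 0.67 (adjusted p = 0.00359) and 0.46 (adjusted p = 0.0387), and the second KLF9 call was lost without any 1 library of the control group, OE-MMP28 replicate 1, the third anti-IL-8 library or anti-VEGFA replicate 1 or 3 (adjusted p 0.0567 to 0.138), and with library totals (0.051) or log2(FPKM + 0.1) (0.0506). PER1, a clock gene, rose by 0.65 in anti-VEGFA (adjusted p = 0.00774, 0.0551 without control replicate 2). The median over the 6 was -0.46 in anti-IL-8 and -0.41 in anti-VEGFA against control, beside -0.02 and 0.00 over all genes, and its part in the MT2A difference was not tested.

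Of 8 metal and proteotoxic stress genes, the heat shock genes HSPA1A, HSPA1B and DNAJB1 rose in both antibody groups against control and SLC7A11, a cystine importer gene, fell in both. HSPA1A rose by 1.08 in anti-IL-8 (adjusted p = 0.0013) and 1.00 in anti-VEGFA (adjusted p = 0.00291), and DNAJB1 by 0.50 (adjusted p = 0.00969) and 0.57 (adjusted p = 0.00612). HSPA1B rose by 0.95 in both (adjusted p = 1.29e-04 and 1.46e-04) and by 0.59 in OE-MMP28 against control (adjusted p = 0.0155), its near-identity with HSPA1A making the division of reads between them uncertain. The OE-MMP28 call was lost without any 1 control library or OE-MMP28 replicate 3 (adjusted p 0.0576 to 0.0962). SLC7A11 fell by 0.69 in anti-IL-8 (adjusted p = 0.0138, and 0.0695 or 0.0849 without control replicate 3 or anti-IL-8 replicate 1) and by 0.57 in anti-VEGFA (adjusted p = 0.0464). The second SLC7A11 call was lost without any 1 control or anti-IL-8 library, OE-MMP28 replicate 1 or anti-VEGFA replicate 2 or 3 (adjusted p 0.0594 to 0.171), and with library totals, these groups alone, limma on FPKM or the mitochondrial covariate (0.056 to 0.0876). Over the 40 genes, 13 were called in anti-IL-8 against control (32.5%) and 9 in anti-VEGFA against control (22.5%), beside 20.7% and 11% of all genes tested. None of the 40 was called by edgeR in either antibody group against OE-MMP28, beside 0% and 0.343% of all genes.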

How the data were processed

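Total RNA of THP-1-derived TAMs was sequenced after preparation with the NEBNext Ultra RNA kit. The submitters' processing notes name HISAT2 2.0.5 and featureCounts 1.5.0-p3. The genome build, read length and strand setting are not given in the sources used here, but all 58735 gene identifiers were found in GENCODE 29 and 58724 had the same start and end there. The deposited counts are the authors' raw reads per gene, and the FPKM values, likewise deposited, scale them by gene length and depth. Gene lengths were copied, and 30 columns of the authors' comparisons (log2 fold changes with raw and adjusted p-values) were not used.

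Groups came from the sample titles. Counts were filtered with filterByExpr, scaled by TMM and fitted for all 4 groups together with the quasi-likelihood test of edgeR 4.0.16 in R 4.3.3, with Benjamini-Hochberg adjustment over the 16046 genes of each comparison and a threshold of 0.05. The common dispersion was 0.0231. The script was tested on simulated data. DESeq2 1.42.0, limma 3.58.1 (voom, and log2(FPKM + 1) and log2(FPKM + 0.1)), no filter, a stricter filter, library totals, pairs of groups alone, the replicate number as a block, the mitochondrial share as a covariate, the unadjusted threshold and leaving out each library were tried. Ratios to MT2A were added after seeing the data. Figures were drawn with matplotlib 3.10.9 under Python 3.11.15.

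The 10 members and the gene lists were chosen with earlier results of these data known. All members were named. From the other lists, genes called at the adjusted threshold were named, at most 3 per direction, list and comparison, and so were the 5 genes most correlated with MT2A and with SLC30A1, of which 1 is not reported here. Library totals were 15852346 to 18701195 counts.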

Additional observations from a re-analysis of the deposited data

How the results depend on the processing

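The number of members called, 0 in all comparisons except 1 in anti-IL-8 against control, did not change with DESeq2, limma voom, limma on FPKM, a stricter filter or library totals. Without a filter it was 1 in OE-MMP28 against control (MT2A, -0.61, adjusted p = 0.00501), 2 in anti-IL-8 against control and 1 in anti-VEGFA against control. Over all genes 707, 3345 and 2112 were then called, against 507, 3317 and 1760 in the main fit. With the 2 groups alone 4 members were called in anti-IL-8 against control, where calls over all genes went from 3317 to 6039. With the mitochondrial covariate 1 member was called in anti-IL-8 against OE-MMP28, where calls over all genes went from 0 to 1739. Unadjusted counts were 1, 2, 1, 4, 2 and 3 in the order OE-MMP28 against control, anti-IL-8 and anti-VEGFA against OE-MMP28, anti-IL-8 and anti-VEGFA against control, and anti-VEGFA against anti-IL-8. Leaving out 1 library gave 0 to 1, 0 to 2, 0 to 0, 0 to 2, 0 to 0 and 0 to 0. The 2 in anti-IL-8 against OE-MMP28 came without OE-MMP28 replicate 3, where 4125 genes in all were called. Of the other pathway genes, main counts of 1, 0, 0, 13, 9 and 0 became 10, 18, 11, 19, 14 and 6 unadjusted, and 0 to 2, 0 to 19, 0 to 7, 8 to 16, 5 to 11 and 0 to 0 without 1 library. They were 12 and 3 (DESeq2), 9 and 2 (no filter) and 11 and 2 (mitochondrial covariate) in anti-IL-8 and anti-VEGFA against OE-MMP28, 2 in OE-MMP28 against control without a filter, and 27 in anti-IL-8 against control with the 2 groups alone. The cause was not tested.

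Same-numbered libraries deviated from their group means with correlations of -0.16 to 0.24, so the numbers were not taken as pairs. With the replicate block no member count changed, the pathway count in anti-IL-8 against OE-MMP28 was 5, and genes called there went from 0 to 795. The block also ended the calls of ATP7A in anti-IL-8 against control (adjusted p = 0.0581) and SLC7A11 in anti-VEGFA against control (0.0684).

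Small differences changed sign. With the mitochondrial covariate SLC30A1 became 0.081 in OE-MMP28 against control, 0.0199 in anti-VEGFA against OE-MMP28 and 0.10 in anti-VEGFA against control, and MT1X became -5e-04 in anti-IL-8 against OE-MMP28. With library totals MTF1 became -6e-04 in OE-MMP28 against control. Leaving out 1 library moved the log2 fold change across 0 in OE-MMP28 against control for MT1E (-0.18 to 0.13), MT1G (-0.062 to 0.59), SLC30A1 (-0.17 to 0.12) and MTF1 (-0.0895 to 0.17). It did so in anti-IL-8 against OE-MMP28 for MT1X (-0.0265 to 0.0898), in anti-VEGFA against OE-MMP28 for MT2A (-0.0143 to 0.42), MT1G (-0.0045 to 0.56) and SLC30A1 (-0.27 to 0.20), in anti-IL-8 against control for MT1X (-0.22 to 0.0352) and MT1G (-0.54 to 0.0819), and in anti-VEGFA against control for MT1F (-0.19 to 0.22) and SLC30A1 (-0.32 to 0.15). The log2 ratio of MT2A to the MT1 members in anti-IL-8 against OE-MMP28, 0.0052, was -0.13 with the median, -0.085 without MT1G and -0.041 to 0.093 without 1 library. At 18 to 68 counts, MT1G allows only large differences to be seen.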
